A study of Mus musculus with 2 samples.

Results

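The genes described here are those that encode the constant parts of antibodies and the chain that links them: the heavy chain constant genes Ighm, Ighd, Ighg1, Ighg2b, Ighg2c, Ighg3 and Igha, the light chain constant genes Igkc and Iglc2, and Jchain. They were chosen by name, and they are 10 of the 13528 genes in the authors' filtered table of transcript counts. The counts came from CD45+ immune cells of mouse liver, in which transcripts and 49 surface proteins were counted together by unique molecular identifiers (UMIs), tags that count molecules rather than reads. The labels give strain C57BL/6 and an age of 10 weeks for every animal, whereas the methods of the study give a slightly younger age. TG cells came from mice with the dnTGFβRII transgene, a human TGF-β receptor that blocks signalling. It is placed under the promoter of mouse CD4 so that T cells express it. WT cells came from wild type mice.

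Cells of the genotypes were pooled before capture. TG cells shared a library with IFN-γ ARE-Del-/- cells, and WT cells shared a second library with P40-/-IL-2Ra-/- cells. Only the 4647 TG and 7282 WT cells that the deposited cell table names were compared, 18498477 and 22216379 UMIs in all, with a median of 3298 and 2653.5 UMIs per cell. Each genotype was a single library, no number of mice was given, and genotype and library cannot be told apart. No test between the genotypes was therefore possible, and every 95% interval below covers counting error only. The authors' 14 cell type names were used, with their B, T, NK and myeloid cells as the main classes. The T class pools CD4, CD8αα, CD8αβ, NKT and γδ T cells, of which NKT were 2232 of 4171 in WT and 446 of 2131 in TG, so its pooled values compare different mixes. The myeloid class pools macrophages (261 of 552 in WT and 109 of 412 in TG), monocytes, neutrophils and basophils, and its mix differed as well. Cells named NK carried Cd3e, a T cell receptor chain, at 97.8 CPM in WT and 1162 CPM in TG, where T cells had 1217 CPM, so in TG that marker goes against the name. There were 1494 WT and 1068 TG mature B cells, 202 and 193 B cells that the authors named immature, and 5338 and 3302 T, NK and myeloid cells. Of the cell index numbers, 36 were held by both a TG and a WT cell.

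An antibody is built from paired heavy and light chains. A naive B cell splices the same rearranged heavy chain to either Ighm or Ighd and so shows IgM and IgD on its surface. Class switching deletes the DNA between the variable segment and a downstream constant gene, after which the cell makes IgG, IgA or IgE, and plasma cells devote much of their RNA to the secreted form. The J chain joins IgM and IgA into polymers that cross mucosal and biliary epithelium, and the liver receives both antibody-secreting cells and antigen from the gut. Light chains come from the kappa locus, Igkc, or from a lambda gene such as Iglc2, and kappa predominates in mice.

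On GRCm38 the heavy chain constant genes lie on the minus strand of chromosome 12 in the order in which switching can reach them. Ighm (chr12:113418558-113422730) is followed after 2233 bases by Ighd (chr12:113406604-113416324), then by Ighg3 after 45371 bases, Ighg1 after 25700, Ighg2b after 17306 and Ighg2c after 14032, with Ighe between Ighg2c and Igha (chr12:113254830-113260236). From the outer end of Ighm to that of Igha the genes span 167901 bases. Igkc is a single exon on chromosome 6 (chr6:70726435-70726966, plus strand), Iglc2 lies on chromosome 16 (chr16:19198396-19200351, minus strand) and Jchain is a gene of 4 exons on chromosome 5 (chr5:88519809-88527891, minus strand).

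The last 60 coding bases of the secreted heavy chains are shown because they separate the isotypes that J chain can join from those it cannot. They were read from GRCm38 in the sense of the transcript, and capitals mark a cysteine codon next to last, which belongs to the tail through which IgM and IgA bind J chain.
Ighm, chr12:113420870-113420929: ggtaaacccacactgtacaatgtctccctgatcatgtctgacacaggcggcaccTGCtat
Igha, chr12:113258771-113258830: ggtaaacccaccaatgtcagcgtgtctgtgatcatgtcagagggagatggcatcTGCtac
Ighg1, chr12:113328979-113329038: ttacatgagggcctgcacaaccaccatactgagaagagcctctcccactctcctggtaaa
Ighg2b, chr12:113306392-113306451: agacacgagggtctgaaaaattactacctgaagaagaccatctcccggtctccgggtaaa
Ighg2c, chr12:113287392-113287451: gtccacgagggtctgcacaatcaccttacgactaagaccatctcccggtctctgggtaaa
Ighg3, chr12:113359668-113359727: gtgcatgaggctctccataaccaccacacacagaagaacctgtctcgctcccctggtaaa
None of the 4 IgG genes has that codon. Over their last 300 coding bases the IgG genes shared between 66.3% and 76.0% of positions pairwise, with no identical run longer than 19 bases.

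In mature B cells the genes fell into those present in nearly every cell and those that were not. Ighm, the constant chain of IgM, stood at 4592 CPM (counts in 1000000 UMIs; 95% interval 4522 to 4662) in WT and 4472 CPM (4401 to 4544) in TG, with a UMI in 99.5% and 99.8% of cells. The log2 ratio of TG over WT was -0.04, and it lay between -0.16 and 0.01 under other scalings and cell filters, so no direction is given. Ighd, the constant chain of IgD, stood at 1257 CPM (1220 to 1294) in WT and 1699 CPM (1655 to 1743) in TG. Its log2 ratio was 0.43 (0.38 to 0.49), with 0.32 to 0.49 under the other scalings and filters. Ighd was found in 87.6% of WT and 95.8% of TG cells, and after each cell was thinned to 1000 UMIs in 68.1% and 76.3%. Cells with more Ighd than Ighm UMIs were 69 WT cells (4.62%) and 70 TG cells (6.55%). The surface proteins were counted in the same cells, with a median of 525 IgD antibody counts in WT and 704 in TG against 348 and 423.5 for IgM. As a share of all antibody counts of those cells, IgD made 25.2% and 27.8%, and IgM 23.2% and 24.1%.

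Transcript and protein of the same isotype varied together from cell to cell within each library. Among mature B cells Spearman's rho was 0.358 in WT (n = 1494) and 0.294 in TG (n = 1068) between Ighm UMIs and IgM antibody counts, and 0.407 and 0.411 between Ighd UMIs and IgD antibody counts. These are descriptions across cells that share a library and whose depths differ, and no p is given. The 332 WT cells with at least 15 Ighm UMIs had 30.6% of their antibody counts on IgM, and the 137 with 1 to 4 had 15.7%. The same shares in TG were 29.1% (421 cells) and 19.4% (45 cells).

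The switched genes and Jchain were found in fewer mature B cells. Igha, the constant chain of IgA, stood at 65.1 CPM (57.1 to 74.0) in WT and 271 CPM (254 to 289) in TG, a log2 ratio of 2.06 (1.85 to 2.27), with 1.88 to 2.11 under the other scalings and filters. It had a UMI in 8.84% of WT and 50.7% of TG mature B cells, and in 3.95% and 21.2% after thinning. Jchain stood at 12.8 CPM (9.37 to 17.1) in WT and 34.2 CPM (28.3 to 41.1) in TG, a log2 ratio of 1.42 (0.91 to 1.95), with 1.20 to 1.78 under the other scalings and filters. Of the 8 genes with enough counts for this comparison (at least 10 UMIs in each genotype and 100 in all), Igha and Jchain were at least 2-fold higher in TG, and 0 were at least 2-fold lower. Over all 7033 genes with such counts the shares were 0.626% higher and 1.01% lower. Ighg2c and Ighg3 did not have enough counts and are given below.

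Igha and Jchain were also counted in cells that are not B cells, near the mature B level in TG and well below it in WT. In T, NK and myeloid cells, leaving out the Ig-rich cells described below, Igha stood at 31.3 CPM in WT and 234 CPM in TG. The level of mature B cells above that of the other cells was 33.8 CPM (25.2 to 43.1) in WT and 36.7 CPM (17.4 to 56.6) in TG. These net levels had overlapping intervals, although the total in TG was 4.16-fold that in WT. Jchain likewise stood at 4.48 and 26.7 CPM outside B cells, which left 8.33 CPM (4.71 to 12.7) in WT and 7.58 CPM (0.929 to 14.95) in TG.

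The IgG genes were also found in few mature B cells. Ighg1 stood at 29.8 CPM (24.4 to 36.0) in WT and 49.4 CPM (42.2 to 57.5) in TG mature B cells, of which 7.59 CPM (1.70 to 14.2) and 5.02 CPM (-3.12 to 13.9) lay above the level in T, NK and myeloid cells. Ighg2b stood at 15.03 and 20.8 CPM, a log2 ratio whose interval included 0 (-0.06 to 1.01), and 8.22 CPM (4.24 to 13.0) lay above the other cells in WT against -0.757 CPM (-6.06 to 5.25) in TG. Ighg3 had 10 UMIs in WT and 14 in TG. Ighg2c, the IgG2 gene of the C57BL/6 haplotype, had 0 UMIs in 1494 WT mature B cells, which allows up to 0.201% of cells with a UMI, and 37.2 CPM in TG, at least 44.6-fold higher against a limit of 3 counts in the WT cells. In TG it had a UMI in 10.5% of mature B cells and stood at 32.9 CPM in T, NK and myeloid cells, so 4.29 CPM (-2.74 to 12.03) lay above the other cells. The filtered table sets Ighg2c to 0 in all WT cells, and the 12 UMIs that the WT library file holds for it, in 3 cells, were put back.

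The composition of the heavy chains gives the same contrast in another form. Switched genes made 1.89% (1.71 to 2.08) of heavy chain UMIs in WT mature B cells and 5.84% (5.53 to 6.15) in TG, and 0.919% and 0.806% once the level of T, NK and myeloid cells was taken off. Mature B cells whose leading gene was a switched isotype, with at least 3 UMIs and more than Ighm and Ighd together, were 11 of 1494 in WT (6 Igha, 3 Ighg2b and 2 Ighg1) and 3 of 1068 in TG (2 Igha and 1 Ighg1). That was 0.736% (0.368 to 1.31) of WT and 0.281% (0.0580 to 0.819) of TG mature B cells, and these intervals overlap.

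**Figure D1:**
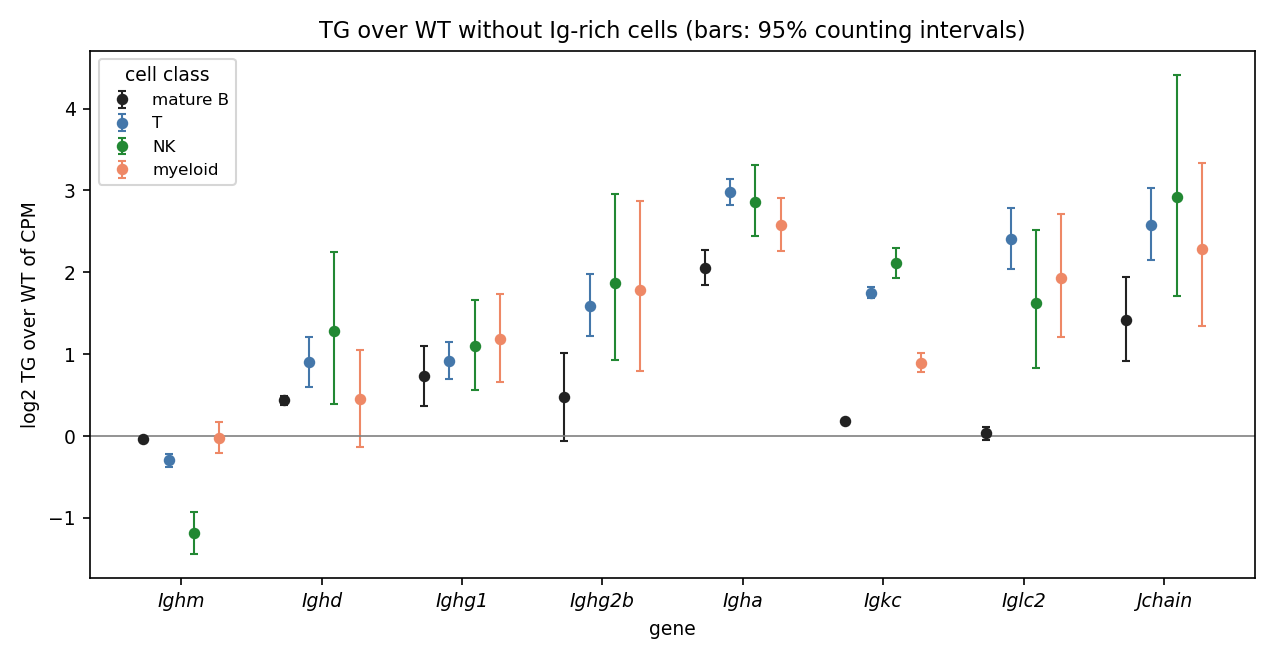
Log2 ratio of TG over WT CPM (vertical axis) for 8 of the genes in mature B, T, NK and myeloid cells without the Ig-rich cells, with 95% counting intervals as bars. Igha lies between 2.06 and 2.98 in all 4 classes, whereas Ighm lies near 0 in mature B cells and at -1.18 in cells named NK, which carry more Cd3e in TG; Ighg2c and Ighg3 are not drawn.

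The light chain genes moved less. Igkc, the kappa constant gene, stood at 10317 CPM (10212 to 10422) in WT and 11739 CPM (11623 to 11855) in TG mature B cells, a log2 ratio of 0.19 (0.17 to 0.21), which fell to 0.04 when likely doublets were left out. Iglc2 stood at 714 CPM (687 to 742) in WT and 730 CPM (701 to 759) in TG, a log2 ratio of 0.03 whose interval included 0 (-0.05 to 0.11). The median over all genes tested in mature B cells was -0.05. Iglc2 made 6.47% of light chain UMIs in WT and 5.85% in TG, and all lambda genes together 11.1% and 10.3%. Among mature B cells with at least 10 light chain UMIs, lambda took more than 50% of them in 33 of 1394 WT cells (2.37%, 1.64 to 3.31) and in 44 of 1043 TG cells (4.22%, 3.08 to 5.62). Iglc2 led in 22 of those WT and 24 of those TG cells, Iglc1 in 7 and 16, and Iglc3 in 4 of each. Cells led by kappa also carried lambda, at a median of 8.57% in WT and 8% in TG. Lambda lay between 10% and 90% in 595 WT and 405 TG cells, so the lambda share of UMIs is not a share of lambda cells.

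Iglc2 and Iglc3 are close copies, and the split of lambda counts between them is uncertain, since how reads that match both were assigned is not given in the sources used here. The last 300 coding bases of each are shown for that reason, from the minus strand of GRCm38, with capitals at the 11 positions where they differ.
Iglc2, chr16:19198539-19198838: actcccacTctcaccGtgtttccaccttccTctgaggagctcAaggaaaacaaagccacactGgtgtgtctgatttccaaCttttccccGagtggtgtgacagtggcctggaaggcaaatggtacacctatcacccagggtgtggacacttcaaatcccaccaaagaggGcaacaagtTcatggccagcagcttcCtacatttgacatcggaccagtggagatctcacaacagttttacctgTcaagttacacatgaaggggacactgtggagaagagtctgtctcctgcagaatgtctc
Iglc3, chr16:19065368-19065667: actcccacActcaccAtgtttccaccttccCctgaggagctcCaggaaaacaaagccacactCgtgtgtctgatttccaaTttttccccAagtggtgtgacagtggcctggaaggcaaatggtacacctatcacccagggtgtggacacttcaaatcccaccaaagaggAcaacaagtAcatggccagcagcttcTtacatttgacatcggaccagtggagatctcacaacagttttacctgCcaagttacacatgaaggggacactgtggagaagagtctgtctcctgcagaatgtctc
The sequences were 96.3% identical, with an identical run of 79 bases and identical last 57 bases. Iglc3 had 443 CPM in WT and 447 CPM in TG mature B cells.

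Ighm, Ighd, Igkc and Iglc2 were at least 2-fold higher in mature B cells than in T, NK and myeloid cells in both genotypes. That was 4 of 8 genes with enough counts, against 2.85% of 9411 genes tested, with the same 4 when Ig-rich cells were left out. Genes of the B cell receptor complex and of Fc receptors were read beside them. Cd79a, a signalling chain of the B cell receptor, stood at 3914 CPM in WT and 4502 CPM in TG mature B cells (log2 ratio 0.20), and Cd79b at 915 and 1134 CPM (0.31). Fcmr, the receptor for IgM, stood at 627 and 644 CPM. Fcer2a, the low affinity receptor for IgE, stood at 630 and 545 CPM (-0.21), and Fcgr2b, the inhibitory IgG receptor, stood at 143 and 128 CPM (-0.17). Fcgrt, the neonatal Fc receptor that recycles IgG, stood at 30.6 and 53.9 CPM (0.82). Outside B cells Fcgrt stood at 6.46 and 39.6 CPM in T, 2.49 and 1.75 CPM in NK and 86.0 and 51.6 CPM in myeloid cells. Of the 6 genes for antibody receptors and transport with enough counts, among 11 measured, 0 were at least 2-fold higher or lower in TG, with a median log2 ratio of 0.12. The corresponding numbers were 0 of 5 for plasma cell genes (median 0.24), 0 of 8 for B cell genes (median 0.09) and 0 of 2 for immature B cell genes (median -0.69). They were 0 of 4 for genes of follicular, marginal zone and B-1 cells (median -0.30), and 0 of 1 for genes of switching and the germinal centre. The last was Bcl6, at 71.0 and 65.5 CPM. Over all genes the shares were 0.626% higher and 1.01% lower, so a count of 0 in lists this short says little.

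**Figure D2:**
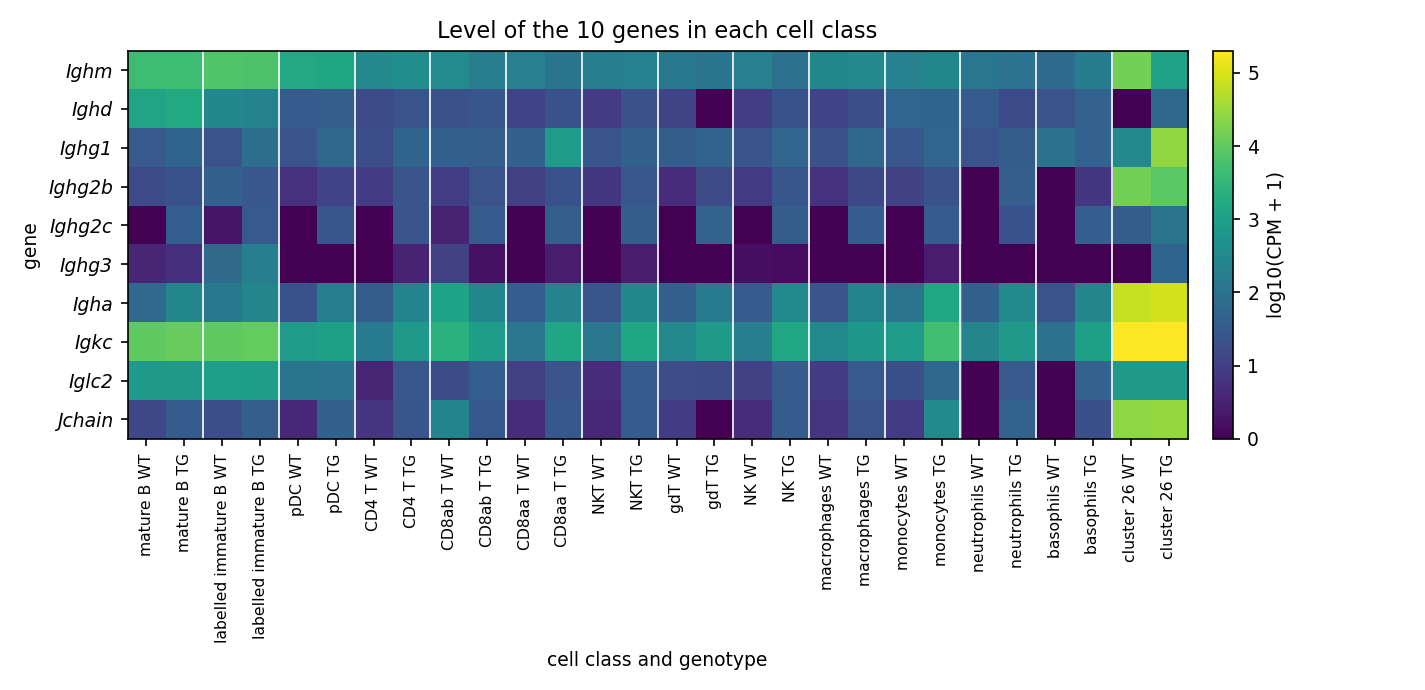
Level of each of the 10 genes (rows) in 13 cell classes and in cluster 26 (columns) of WT and TG, all cells included, as log10 of CPM plus 1. Igha, Jchain, Ighg1 and Ighg2b are highest in cluster 26 (Igha at 69903 CPM in WT and 87109 CPM in TG), whereas Ighg3 is highest in the B cells named immature and Ighd in mature B cells. The WT cluster 26 levels of Ighg1 and Ighg2b rest mainly on single cells, with 32 Ighg1 UMIs in a cell led by Igha and 1636 Ighg2b UMIs in another.

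The B cells named immature differed from mature B cells in the ratio of Ighd to Ighm. Ighm stood at 7201 CPM (7037 to 7368) in WT and 6709 CPM (6564 to 6855) in TG, and Ighd at 282 CPM (250 to 317) and 233 CPM (207 to 262). For every 100 Ighm UMIs there were 3.92 of Ighd in WT and 3.48 in TG. Mature B cells had 27.4 and 38.0. Cells with more Ighd than Ighm UMIs were 0 of 202 in WT and 0 of 193 in TG, which allows up to 1.49% and 1.55%. The median IgD antibody count was 43.5 in WT and 27 in TG, against 537 and 1765 for IgM. Within each genotype IgM was above IgD, whereas between genotypes the IgM antibody count was higher in TG and the Ighm level was not.

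The name was checked against its markers, and 5 of 8 markers of immature B cells were measured. Cd93 stood at 0.983 CPM in WT and 1.64 CPM in TG against 13.4 and 7.14 CPM in mature B cells, and Vpreb3 at 44.2 and 17.2 CPM against 217 and 142 CPM. Vpreb1 was at or under 0.983 CPM and Dntt, a polymerase of developing lymphocytes, was at 0 in both genotypes. Cd24a stood at 531 and 294 CPM against 487 and 288 CPM. Cd93 and Vpreb3, lower than in mature B cells, go against the name. The Cd93 values carry little weight, since they lay under the level of 3 counts in these cells (2.95 CPM in WT and 2.46 CPM in TG). T cells had 33.4 and 10.8 CPM of Cd93, above mature B cells. Dntt (0 and 2.68 CPM in mature B cells) and Cd24a, close to its mature B level, do not separate the classes. Of the genes of follicular, marginal zone and B-1 cells, Zbtb32 (191 and 268 CPM against 2.50 and 2.08 in mature B cells) and Bhlhe41 (156 and 125 against 19.2 and 13.1) were higher. Fcer2a (CD23, 87.5 and 50.7 against 630 and 545), Cr2 (58.0 and 27.8 against 320 and 243) and Cd1d1 (22.6 and 39.3 against 46.2 and 47.3) were lower. Cd5 stood at 19.7 CPM in WT and 7.37 CPM in TG against 19.5 and 2.68 CPM. The cells are called here B cells named immature.

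Ighg3 was concentrated in these cells. It stood at 65.9 CPM (51.1 to 83.7) in WT and 196 CPM (172 to 222) in TG, and they held 62.0% of all WT and 85.1% of all TG Ighg3 UMIs. Few cells carried it, since the 3 highest cells held 52.2% of the Ighg3 UMIs of these cells in WT and 82.0% in TG, where a single cell had 151. Switched genes made 3.49% of heavy chain UMIs in WT and 7.85% in TG, and a switched isotype led in 9 WT and 5 TG cells. Igha stood at 138 and 260 CPM, Ighg1 at 21.6 and 81.0 CPM, Ighg2b at 44.2 and 26.2 CPM and Jchain at 17.7 and 40.1 CPM. Lambda led in 23 of 192 WT cells (11.98%, 7.75 to 17.4) and 21 of 192 TG cells (10.9%, 6.90 to 16.2) with at least 10 light chain UMIs, above the shares in mature B cells. Igkc stood at 10354 and 11077 CPM, of which 9703 CPM remained in WT without its single Ig-rich cell, and Iglc2 at 988 and 875 CPM.

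A small number of cells held most of the Igha, Ighg2b and Jchain transcripts. Cells in which the 10 genes made at least 10% of all UMIs are called Ig-rich, which is a range of values and not a cell type. They were 18 of 7282 WT cells (0.247%, 0.147 to 0.390) and 37 of 4647 TG cells (0.796%, 0.561 to 1.10). They held 92.6% of WT and 85.7% of TG Igha UMIs, 96.3% and 94.3% of Jchain, 88.4% and 87.0% of Ighg2b, and 35.6% and 51.1% of Igkc. Ighg1 split by genotype, with 18.2% of WT and 91.5% of TG UMIs in Ig-rich cells, whereas Ighd had 0 and 0.268% there, Ighm 6.16% and 1.31%, and Iglc2 2.75% and 5.27%. Ighg2c and Ighg3 also lay mostly elsewhere, with 33.3% of the 12 WT and 5.48% of the TG UMIs of Ighg2c, and 26.9% and 5.34% of Ighg3, in Ig-rich cells. In TG 68.2% of Ighg2c UMIs lay in T, NK and myeloid cells outside that range, which were 3296 of the 4647 TG cells. All TG T, NK and myeloid cells held 13286128 of the 18498477 TG UMIs, so that share is near an even spread. The lowest of the 55 cells lay at 11.5% and the highest cell outside the range at 8.62%, and a limit of 5% gave 19 WT and 39 TG cells, a limit of 20% 13 and 32.

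Most Ig-rich cells belonged to cluster 26 of the authors' 30 clusters, 14 of its 14 WT cells and 31 of its 32 TG cells. The leading genes of cluster 26 by fold over all other cells included Tnfrsf17, the receptor BCMA (59 UMIs in 16 of 32 TG cells and 0 in the 14 WT cells), Derl3 and Fkbp11, which act in the secretory pathway, Sdc1, the surface protein CD138, and Mzb1, a chaperone of antibody assembly. Of 10 plasma cell markers its cells had a median of 6.5 in WT and 8 in TG, against 1 in mature B cells of both genotypes. The cells had a median of 8223 UMIs in WT and 9092 in TG. Their median antibody count for CD138, the protein that Sdc1 encodes, was 0 in WT and 0.5 in TG, and CD138 made 0.101% and 0.130% of their antibody counts against 0.0144% and 0.00721% in mature B cells.

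In each Ig-rich cell a single heavy chain gene led. The leading heavy chain gene made over 95% of heavy chain UMIs in 17 of 18 WT and 30 of 37 TG cells, and no less than 81.8% in any. Igha led in 14 WT and 29 TG cells, Ighm in 3 and 1, Ighg2b in 1 and 2, and Ighg1 in 0 and 5. In some TG cells that lead rested on few UMIs, as in a cell with 16 Igha beside 2362 Igkc UMIs and another with 27 beside 540. Igha also made 42.9% of heavy chain UMIs in TG T, NK and myeloid cells that were not Ig-rich. Igkc made at least 96.9% of light chain UMIs in all 55 cells, but the limit of 10% counts Igkc and Iglc2 and not Iglc1 or Iglc3, so cells with those lambda genes could miss it. The TG cell of cluster 26 that fell below the limit, at 7.94%, was such a cell, with Igha at 97.5% of heavy chain UMIs and lambda genes at 91.4% of light chain UMIs. One TG cell led by Igha also had 111 UMIs of Ighe, the constant gene of IgE, out of 117 in all named TG cells.

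Jchain varied widely among the 55 Ig-rich cells, from 1 to 1175 UMIs. Among all named cells 1.63% in WT and 10.8% in TG had a Jchain UMI, so a single UMI in a TG cell is not read as expression. It made a median of 1.37% of UMIs in WT (0.0803 to 5.75) and 1.06% in TG (0.0320 to 6.95). Among cells led by Igha the medians were 1.37% and 1.06%. The 7 TG cells led by an IgG gene had a median of 2.43% (0.0322 to 3.06), and the single WT cell led by an IgG gene had 0.434%. The IgG sequences lack the tail cysteine shown above. The 3 WT cells led by Ighm had a median of 4.73% (0.103 to 5.20), and the single TG cell led by Ighm had 0.698%. The ranges of the sets with more than 1 cell overlapped.

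**Figure D3:**
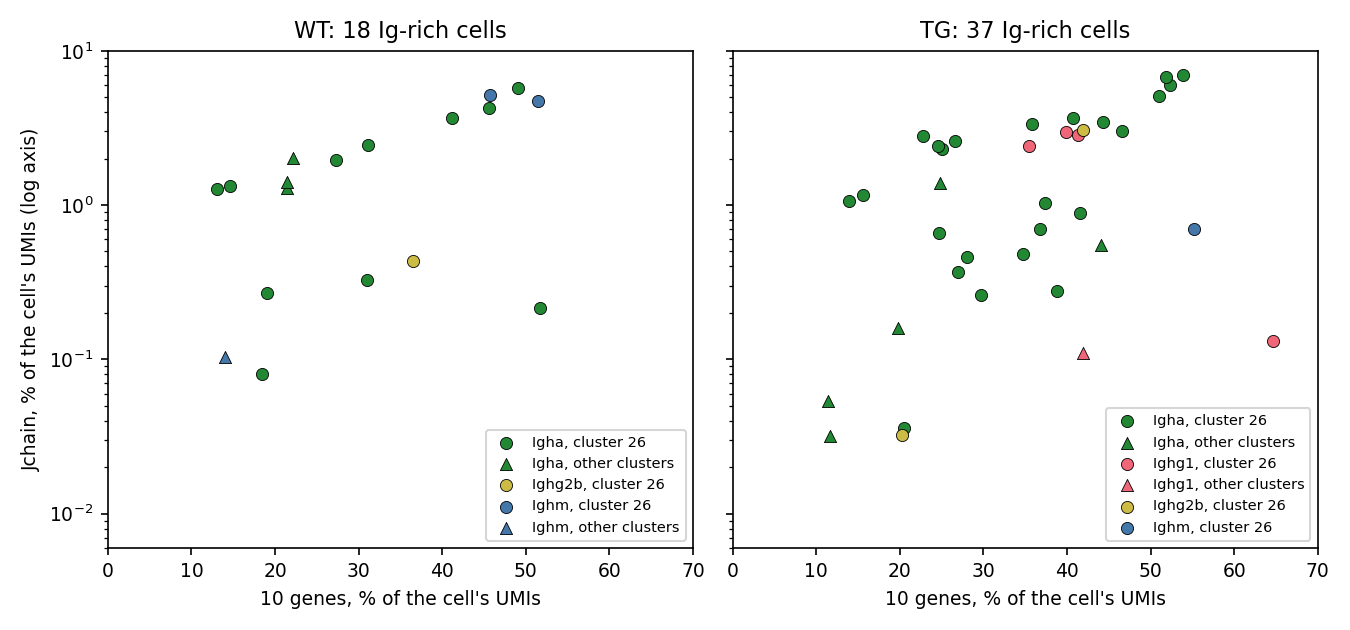
Each point is an Ig-rich cell, with the share of its UMIs on the 10 genes (horizontal axis, percent) against the share on Jchain (vertical axis, percent, log scale), coloured by the leading heavy chain gene and drawn as a circle in cluster 26 and a triangle elsewhere. Jchain runs from 0.0320% to 6.95% of UMIs, and cells led by Igha lie at both ends of that range.

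Of the 10 Ig-rich cells outside cluster 26, 9 carried T, NK or myeloid names. The 3 in WT were named CD8αβ T cells and had 1737, 928 and 888 Igha UMIs and 2644, 1527 and 1810 Igkc UMIs. They showed 6 to 8 of 10 plasma cell markers and at most 1 of 5 T cell markers. In TG a cell named CD8αα T had 1074 Ighg1 and 820 Igkc UMIs with 2 plasma and 4 T cell markers. A TG cell named monocyte had 692 Igha, 2299 Igkc and 178 Jchain UMIs with 9 plasma markers. The other TG cells were 2 named NK, 1 NKT and 1 CD8αβ T, with 1 to 5 plasma markers, and the remaining WT cell, led by Ighm, was a B cell named immature. Their names were kept as deposited, and they are left out wherever Ig-rich cells are.

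Outside B cells, Igkc was counted in most T, NK and myeloid cells of TG. Igkc had a UMI in 27.4% of WT and 89.3% of TG T cells, in 26.2% and 87.7% of NK cells and in 30.4% and 92.2% of myeloid cells, and after thinning in 11.5% and 51.1%, 11.9% and 54.7%, and 11.96% and 56.8%. Igha had a UMI in 7.22% of WT and 57.5% of TG T cells, 2.30% and 21.1% after thinning. For Igha the share in TG mature B cells was 50.7%, and 21.2% after thinning, so at equal depth the shares in TG T and mature B cells were close. The median depth was 3726 UMIs per T cell and 2923 per mature B cell. The shares of cells with a UMI in this paragraph include the Ig-rich cells.

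Summed over the 10 genes, the level in T, NK and myeloid cells was 3.39% of that in mature B cells in WT and 7.19% in TG without the Ig-rich cells, and 7.11% (6.997 to 7.23) and 10.9% (10.8 to 11.1) with them. By class, without the Ig-rich cells, it was 3.23% and 7.08% in T cells, 2.79% and 6.86% in NK cells and 4.82% and 8.27% in myeloid cells. The genes differed widely in this measure. Ighm stood outside B cells at 5.30% of its mature B level in WT and 4.199% in TG, Ighd at 1.05% and 1.40%, Igkc at 2.39% and 6.52%, and Iglc2 at 0.988% and 4.55%. Igha stood at 48.1% and 86.5%, Jchain at 35.0% and 77.9%, Ighg1 at 74.5% and 89.8%, and Ighg2b at 45.3% and 104%. With the Ig-rich cells included, Igha and Jchain outside B cells exceeded their mature B level, at 381% and 384% in WT and 123% and 126% in TG. Ighg1 did so in TG, at 254% against 90.9% in WT. Ighg2b stood at 108% (83.0 to 142) in TG, close to its 104% without them, and at 45.5% in WT.

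The genotypes differed by gene in the T, NK and myeloid cells without Ig-rich cells. Igha stood at 31.3 CPM in WT and 234 CPM in TG, a log2 ratio of 2.90 (2.77 to 3.04), Jchain at 4.48 and 26.7 CPM (2.57, 2.21 to 2.96) and Igkc at 247 and 765 CPM (1.63, 1.58 to 1.69). Iglc2 stood at 7.05 and 33.2 CPM, Ighg2b at 6.80 and 21.6 CPM, Ighg1 at 22.2 and 44.4 CPM and Ighd at 13.2 and 23.7 CPM. Ighm was the exception, at 243 CPM in WT and 188 CPM in TG, a log2 ratio of -0.37 (-0.45 to -0.30). Its ratio was -1.18 in cells named NK (207 and 91.1 CPM), which differed in T cell markers as given above, and -0.98 in CD8αβ T cells (366 and 186 CPM), but 0.41 (0.21 to 0.60) in CD4 T cells (319 and 423 CPM) and -0.02 in myeloid cells. It was 0.19 (0.02 to 0.36) in NKT cells, the largest WT class, and -0.85 in CD8αα T cells, so the pooled ratio mixes classes of both directions.

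Whether the Ig-rich cells were counted decided the direction for some genes in T cells. With all cells Igha stood at 309 CPM in WT and 270 CPM in TG T cells, a log2 ratio of -0.19, against 28.9 and 227 CPM and 2.98 without them. Jchain turned in the same way, from -1.11 (62.0 and 28.7 CPM) to 2.58 (4.35 and 25.96 CPM). Of the 30 WT UMIs of Ighg3 in T cells 29 lay in a single Ig-rich cell, which left 1 UMI in WT and 11 in TG, too few for a direction. Ighg1 moved from 2.48 to 0.92 and Igkc from 0.61 to 1.75, both keeping their direction.

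**Figure D4:**
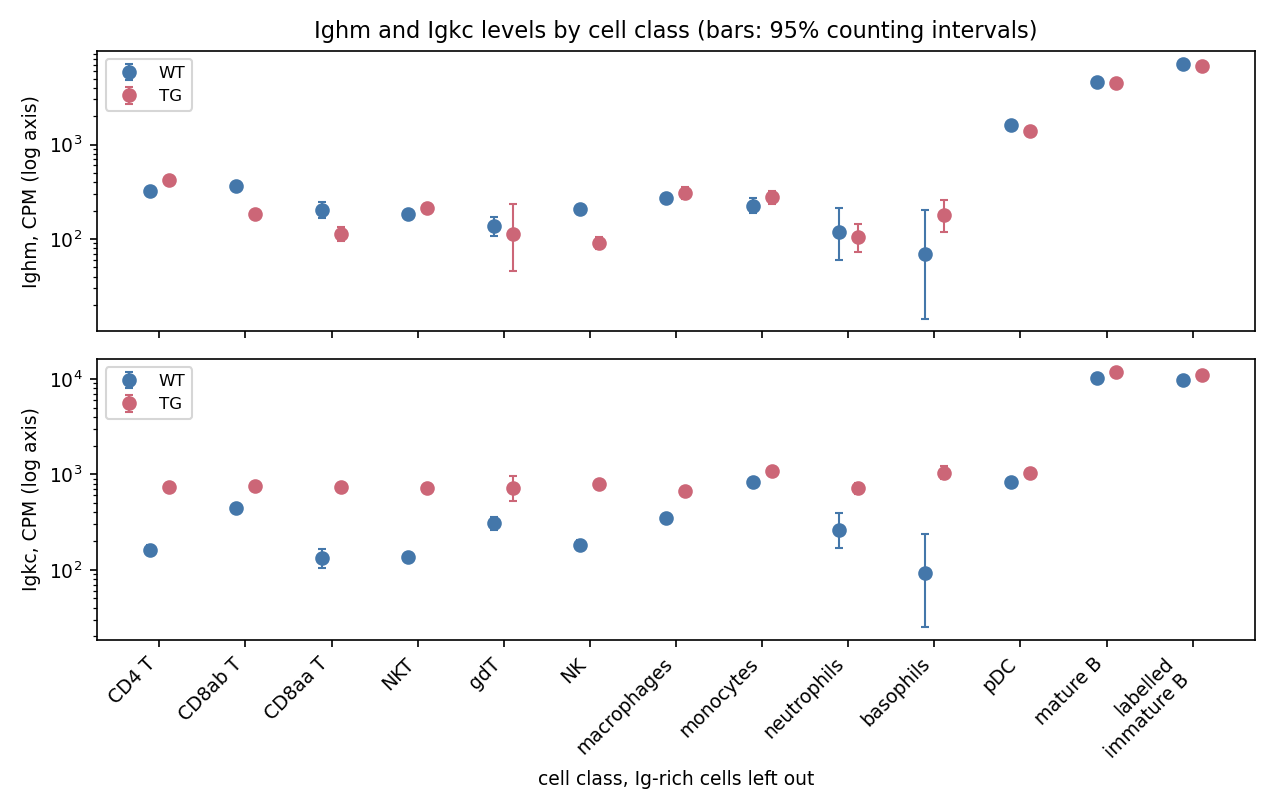
CPM of Ighm and Igkc (log axis) in each cell class of WT and TG, with the Ig-rich cells left out. Igkc is higher in TG in each T, NK and myeloid class drawn, whereas Ighm is lower in TG in CD8αβ T cells and in cells named NK (207 and 91.1 CPM), which carry more Cd3e in TG.

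The proportion of Igha to Igkc in cells that are not B cells was above that in mature B cells in each class of both genotypes. Ig-rich cells were left out of the values in this paragraph, except in cluster 26 and where stated. In TG, Igha UMIs per 100 Igkc UMIs were 32.9 in CD4 T, 32.5 in CD8αα T, 28.1 in CD8αβ T and 36.5 in NKT cells. They were 29.2 in NK cells, 37.7 in macrophages and 24.8 in monocytes. Classes with fewer cells ran from 19.2 in pDC, 20 in γδ T cells (46 UMIs of Igkc and Iglc2) and 24.4 in basophils to 47.9 in neutrophils. TG mature B cells had 2.31 and TG cluster 26 had 43.5. Ighm UMIs per 100 Igkc UMIs ran from 11.5 in NK to 57.5 in CD4 T cells among TG T, NK and myeloid cells, and stood at 137 in pDC. In WT the proportion of Igha to Igkc ran from 6.54 in CD8αβ T to 28.8 in CD8αα T cells, and stood at 2.5 in pDC. WT mature B cells had 0.631 and WT cluster 26 had 35.5. The WT CD8αα T value rests on only 78 UMIs of Igkc and Iglc2. With the Ig-rich cells it was 49.7 in WT CD8αβ T cells, and in TG 17.7 in CD8αα T and 22.2 in NK cells.

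Markers of other cell types were read beside these counts, and they moved in both directions. Over the same T, NK and myeloid cells, the summed level of 8 B cell markers was 137 CPM in WT and 209 CPM in TG, against 8690 and 9696 CPM in mature B cells. All 8 were above 0, with 7 higher in TG (Cd79a 41.0 and 85.8 CPM) and Blk lower (33.4 and 12.8). The 10 plasma cell markers summed to 213 and 238 CPM, with 8 higher in TG, Mzb1 at 3.37 and 10.3 CPM and Sdc1 lower at 3.62 and 0.302 CPM. The largest parts of that sum were Xbp1 (93.7 and 85.6 CPM), Prdm1 (40.7 and 54.4) and Creld2 (42.3 and 47.4). None of these 3 was lower there than in mature B cells, which had 66.8 and 78.9, 8.35 and 6.55, and 32.8 and 33.0 CPM. The 4 pDC markers summed to 316 and 238 CPM, with all 4 lower in TG. The 6 macrophage and monocyte markers summed to 1675 and 1886 CPM, with 2 higher in TG and 4 lower, but this set includes the macrophages and monocytes themselves. By class they summed to 6513 CPM in WT and 5534 CPM in TG myeloid cells, with 1 higher in TG and 5 lower. In T cells they summed to 999 and 1278 CPM (4 higher, 2 lower), and in cells named NK to 801 and 1656 CPM (3 higher, 3 lower). The 5 T cell markers summed to 999 CPM in WT and 3235 CPM in TG in cells named NK, and in mature B cells to 689 and 305 CPM, with all 5 lower in TG. Cells that mixed B and T lineage markers were 4.41% of WT and 9.30% of TG cells, while Scrublet marked 3.27% and 0.839%. The part of such cells, and of depth, in the counts outside B cells was not tested.

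The share of a gene's UMIs in its 3 highest cells separates counts that many cells share from counts of a few. In mature B cells it was 0.891% in WT and 1.05% in TG for Ighm, 0.799% and 2.29% for Igkc, 20.1% and 15.8% for Igha, and 39.1% and 6.09% for Jchain. A single TG mature B cell had 120 Igha and a single one 579 Igkc UMIs. In T cells the 3 highest held 90.7% of Igha UMIs in WT and 16.4% in TG, 93.01% and 10.5% of Jchain, 68.2% and 29.7% of Igkc, but 30.2% and 74.1% of Ighg1. Ighm was spread over many T cells, at 9.40% and 7.56%. In NK cells the shares were 11.8% and 32.6% for Igha (51 and 766 UMIs) and 28.6% and 49.2% for Igkc (294 and 3457 UMIs). In myeloid cells they were 46.3% and 61.9% for Igha (95 and 1158 UMIs) and 33.3% and 81.0% for Jchain (12 and 226 UMIs). The WT Jchain share there rests on too few UMIs to be read. Over T, NK and myeloid cells the 3 highest held 52.5% of the summed UMIs in WT and 23.7% in TG, and 10.9% and 2.86% once the Ig-rich cells were left out.

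**Figure D5:**
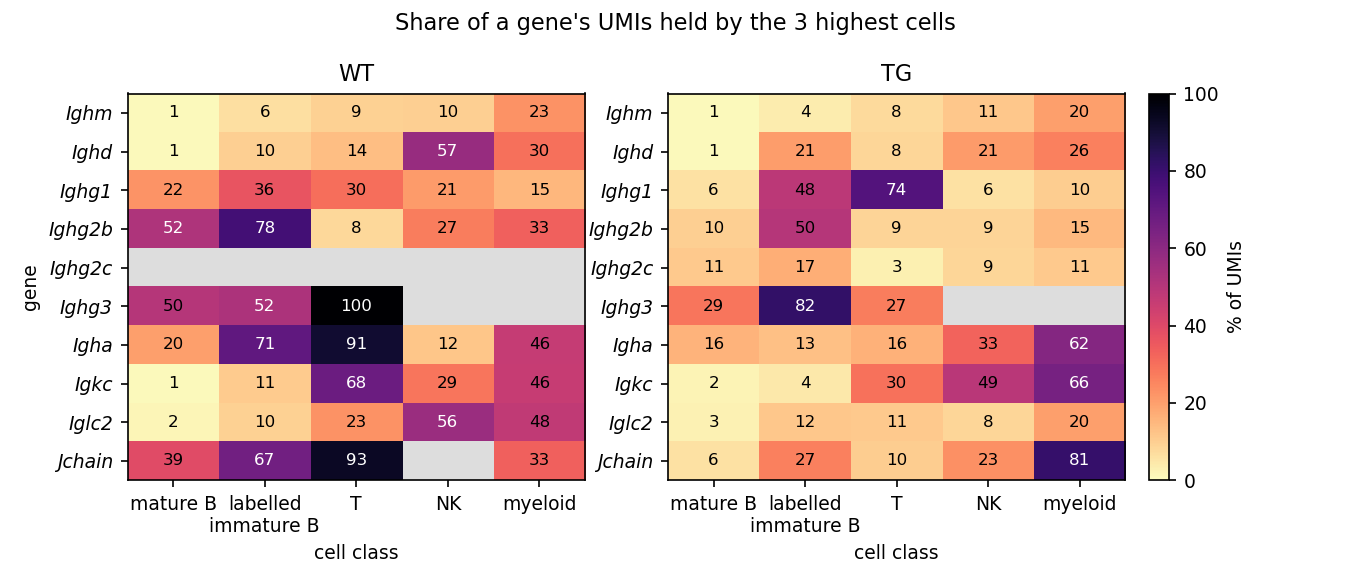
Percent of the UMIs of each gene (rows) held by its 3 highest cells in each class (columns) of WT and TG; grey fields had under 10 UMIs. Igha and Jchain reach over 90% in WT T cells, whereas Ighm and Igkc stay at or under 2.29% in mature B cells.

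Plasmacytoid dendritic cells (pDC) carried Ighm at a level between B cells and the other classes. Ighm stood at 1605 CPM (1529 to 1683) in 219 WT and 1397 CPM (1262 to 1542) in 46 TG cells, 35.0% and 31.2% of the mature B level. It had a UMI in 99.1% and 97.8% of pDC, 79.0% and 65.2% after thinning, and the 3 highest cells held 9.38% and 12.5% of it. Ighd, at 32.4 and 39.2 CPM, did not share that level. Igkc stood at 838 and 1023 CPM, or 8.12% and 8.71% of the mature B level, and Iglc3 at 522 and 481 CPM against 113 and 103 CPM for Iglc2. The 8 B cell markers summed to 409 and 274 CPM in pDC and 4 markers of pDC (Siglech, Ccr9, Irf8 and Tcf4) to 11710 and 10329 CPM. The median IgM antibody count was 14 and 6.5, near the 11 and 8 of T cells.

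The genes most like each member were found over 21 profiles of cell class and genotype with at least 50 cells and 10769 genes, as Pearson's correlation of log2(CPM + 1) over all cells of each profile, with the other immunoglobulin genes left out. Profiles of the same genotype share a library, and the values are a description. Cluster 26, which holds most Igha and Jchain UMIs, has too few cells to be among them, and in WT CD8αβ T cells the 3 highest cells held 97.6% of Igha UMIs. Ighm was most like Nxpe2 (0.949), Cxcr5 (0.933) and Blnk (0.931), and Ighd most like Fcer2a (0.958), Cd79a (0.948) and Vpreb3 (0.943). Igkc was most like Mzb1 (0.917). Igha and Jchain had no gene as close, with Cox17 (0.692) and Sp3os (0.622) the nearest.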

How the data were processed

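Single-cell transcripts and antibody tags were sequenced from 2 pooled libraries. According to the submitters' processing notes, which name the BD WTA Multiplex Rhapsody Analysis Pipeline, version 1.9 (the methods of the study name a later release of it), the authors aligned reads to mm10 and deposited UMI counts per cell as whole numbers, unnormalized, both before and after a filter on cells and genes whose rule is not given in the sources used here. Genotype and cell type names came from the deposited cell table, and cells without a genotype name entered no comparison. The genes and gene lists were chosen with earlier results of these data known.

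Counts were summed over the cells of a class and scaled to 1000000 UMIs (CPM), with exact Poisson intervals for levels, exact Clopper-Pearson intervals for shares of cells and conditional binomial intervals for ratios. Cells were not treated as replicates and no test between genotypes was made. Counts of genes past 2-fold covered genes with at least 10 UMIs in each genotype and 100 in both, whereas ratios of single members are given with their intervals or counts where these were lower. Shares of cells were also given after thinning every cell to 1000 UMIs, and no named cell was shallower. Likely doublets were marked by Scrublet (scanpy 1.11.5) or by B and T lineage markers in the same cell, and were left out only as an alternative. Other alternatives were TMM factors (edgeR 4.0.16, R 4.3.3), a total without ribosomal and mitochondrial genes, equal weight per cell, B cells of every name, the files before the gene filter, and leaving out the highest or Ig-rich cells. Counts were not scaled by length, so proportions and differences between genes are of UMIs and not of transcripts per length. The named genes were the members, the fixed lists and the 3 genes most alike to each main member. Positions and sequences came from the GRCm38 genome with the GENCODE annotation, and the counting code was tested on simulated data. Python 3.11.15, numpy 2.4.6, pandas 2.3.3, scipy 1.17.1 and matplotlib 3.10.9 were used. Values of some marker genes are not reported here.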

Additional observations from a re-analysis of the deposited data

Results flagged for a closer look

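For Ighm, Ighd, Ighg2b and Iglc2 the ratio of TG over WT, without Ig-rich cells, pointed in opposite directions in different cell types. Their intervals lay on either side of 0. How many of all genes would meet the same rule was not counted, so it is not read as particular to these genes. Ighm had a log2 ratio of 0.41 in CD4 T cells and -1.18 in cells named NK, which carried Cd3e at 97.8 CPM in WT and 1162 CPM in TG. Ighd had 1.30 (0.63 to 1.95) in NKT cells and -0.28 (-0.53 to -0.04) in B cells named immature. Ighg2b had 1.87 (0.93 to 2.95, from 57 TG and 11 WT UMIs) in cells named NK and -0.77 (-1.47 to -0.08, from 32 and 45 UMIs) in B cells named immature, and Iglc2 had 3.34 (1.91 to 5.10, from 22 TG and 5 WT UMIs) in CD4 T cells and -0.17 in B cells named immature. These differences were not tested, because each genotype was a single library, and the extremes were picked from many cell types.

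Cells that carry no genotype name in the deposited cell table also held Ig-rich cells. In the library of the TG cells these were 77 of 5379 unnamed cells (1.43%, 95% interval 1.13 to 1.79), and in the library of the WT cells 69 of 16829 (0.410%, 0.319 to 0.519). Igha led in 60 and 47 of them. Ighg2c led in 8 unnamed cells of the library with TG and in 0 of the 37 named TG Ig-rich cells. Outside the Ig-rich cells, Ighg2c stood at 33.2 CPM in the named and 40.0004 CPM in the unnamed cells of that library, against 0.363 and 0.701 CPM in the other.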

How the results depend on the processing

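The log2 ratio of TG over WT for the 10 genes summed in mature B cells was 0.16, and it kept its direction throughout. It was 0.10 after thinning, 0.028 without likely doublets, 0.19 without ribosomal and mitochondrial genes in the total, 0.21 with TMM factors, 0.10 with equal weight per cell, 0.13 over B cells of every name and 0.11 with the level of T, NK and myeloid cells taken off. The summed level in T, NK and myeloid cells, 7.11% of the mature B level in WT and 10.9% in TG, was 3.39% and 8.44% without the 3 highest cells, 3.45% and 9.57% thinned, 4.31% and 8.08% without doublets, 6.86% and 10.0% without ribosomal and mitochondrial genes, 6.42% and 9.51% with TMM factors, 3.45% and 9.44% with equal weight, and 3.39% and 7.19% without Ig-rich cells. The switched share, 1.89% in WT and 5.84% in TG, was 1.65% and 5.49% thinned, 1.67% and 5.08% without doublets, 2.32% and 6.43% over B cells of every name, 5.30% in TG without the 3 highest cells, and 0.919% and 0.806% with the level outside B cells taken off. Counting all lambda genes moved the lambda share from 6.47% to 11.1% in WT and from 5.85% to 10.3% in TG. The highest cell held 23.6% of the summed UMIs outside B cells in WT and 11.5% in TG, the 3 highest 52.5% and 23.7%, and the 10 highest 60.9% and 36.8%. Without a minimum count, 633 genes were at least 2-fold higher and 614 lower in TG mature B cells, in place of 44 and 71. The alternatives without Ig-rich cells, with the level outside B cells taken off and without shared cell index numbers were chosen after seeing the data. The causes of these changes were not tested. No paired analysis was possible because each genotype is a single library, and for the same reason no replicate could be left out. Ighg2c and Ighg3 had the fewest UMIs in WT mature B cells, 0 and 10, against 125 and 14 in TG. The summed depth of these cells was 3592928 UMIs in WT and 3359463 in TG.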

Other observations

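Within each library, named and unnamed cells had close levels of Igha outside the Ig-rich cells. Igha stood at 248 CPM in named TG cells and 284 CPM in the unnamed cells captured with them, and at 41.2 CPM in WT cells and 48.8 CPM in the unnamed cells of their library. Jchain stood at 29.3 and 33.1 CPM in the first library and at 6.07 and 13.4 CPM in the second. Ighm and Igkc were not close in the second library, where named and unnamed cells had 1326 and 422 CPM of Ighm and 2346 and 835 CPM of Igkc. In the first library they had 1436 and 1140 CPM of Ighm and 3489 and 3154 CPM of Igkc. Ighg1 led in 18 of the 69 unnamed Ig-rich cells of the second library and in 1 of the 77 of the first, against 5 of the 37 named TG cells and 0 of the 18 WT cells. Lambda led in 7 unnamed Ig-rich cells of each library and in 0 of the 55 named ones, although the limit that defines these cells does not count Iglc1 or Iglc3. The genotype of the unnamed cells was not used here.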
